A study of Mus musculus with 24 samples.

Results

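This account compares reactivated TH1 cells with resting naive cells, the ends of a series on the activation of mouse CD4 T cells. The members are the 12 of 24 libraries titled as naive (6) or as reactivated effector (6), and libraries of the 2 groups that carry the same number in their titles form a pair. All animals had the genotype written OT2Nur77GFP+/-, on a C57BL/6 background. They were crosses of a strain with the OT-II receptor transgenes, by which most CD4 T cells recognise the same ovalbumin peptide, and of Nr4a1-EGFP/cre, a reporter driven by the promoter of Nr4a1 (Nur77). The naive cells came from spleens and were labelled as naive, with no treatment named. The reactivated TH1 cells were grown from such naive cells, were differentiated to TH1 for 5 days and then met macrophages pulsed with antigen for 6 hours. Sorted cells of both groups were frozen for RNA, and the sources used here give neither the age of the animals nor the agents used for differentiation. The other 12 libraries, 6 of naive cells stimulated for 6 hours (activated naive) and 6 of TH1 cells before reactivation (TH1 effector), enter the fit and are used where the span is split into its steps. No library holds TH1 cells kept with macrophages without antigen, so antigen, macrophages and culture cannot be told apart.

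A naive CD4 T cell circulates between blood and lymphoid organs in a quiescent state kept by factors such as KLF2, FOXO1 and TCF-1. Antigen with interleukin 12 and interferon gamma drives it towards the TH1 fate, in which the transcription factor T-bet opens the gene of interferon gamma, the cytokine that arms macrophages. A TH1 cell that meets its antigen again releases cytokines within hours, and its receptor signals at the same time induce feedback inhibitors and inhibitory surface receptors.

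The genes that define the labels were as follows. Tests are edgeR's quasi-likelihood tests with Benjamini-Hochberg adjustment over all genes tested, levels are given in CPM, counts scaled to the size of each library, and SE is the standard error of a log2 fold change (reactivated TH1 over naive). The p-values come from the fit of all 24 libraries and are not built from this SE, so the SE and p need not rank genes alike. Cd4 was at 926 ± 52.8 CPM (mean ± SD, n = 6) in naive and 427 ± 41.01 CPM (n = 6) in reactivated TH1 libraries, and Cd3e, of the receptor complex, was at 446 ± 22.1 and 279 ± 8.84 CPM. Both are present in all 12 libraries and were lower in the reactivated group, with log2 fold changes of −1.12 (SE 0.07, adjusted p = 2.16e-15) and −0.68 (SE 0.02, adjusted p = 1.98e-11). Tbx21, which encodes T-bet (chr11:97098071-97115331 in mm10), was at 0.0738, 0.205, 0.0712, 0.204, 0.0480 and 0.0939 CPM in naive numbers 1 to 6 and at 240.99, 208, 172, 213, 183 and 143 CPM in reactivated TH1 numbers 1 to 6. The 2 groups did not overlap (log2 fold change 10.65, SE 0.26, adjusted p = 6.57e-24). Nr4a1, whose promoter drives the reporter, was at 801, 319, 239.2, 496, 385 and 362 CPM in naive and 1918, 776, 245, 1088, 403 and 309 CPM in reactivated TH1 numbers 1 to 6. The ranges overlapped and the difference did not pass the test (log2 fold change 0.88, SE 0.58, adjusted p = 0.0826). Xist had 23172 to 55715 counts in numbers 2, 3 and 4 of both groups and at most 24 in the others, whereas the Y-linked gene Ddx3y had 2223 to 4816 counts in numbers 1, 5 and 6 and none in the others, so that the sex of the cells matched by number. The labels do not say whether a number stands for an animal, so the p-values rest on the spread between libraries. Each group holds cells of both sexes, but the spread between libraries of the same sex may be technical.

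Counts assigned to genes ranged from 18457653 to 27533319 in naive and from 22146672 to 34262645 in reactivated TH1 libraries. At least 1 count was found for 12901 to 13198 genes in naive and 14308 to 14415 genes in reactivated TH1 libraries. Reads outside any counted feature were 21.6% to 24.5% of reads in naive and 13.2% to 18.1% in reactivated TH1 libraries. Numbers 1 to 3 of both groups came from lane 3 and numbers 4 to 6 from lane 4, by the lane code of the file names. The first principal component of the 12 libraries held 94.2% of the variance and separated the groups. Of 40 macrophage marker genes, 22 were tested, and 17 of them were at least 2-fold higher in reactivated TH1 cells and 1, Itgam, at least 2-fold lower. Their summed level was 32.7 to 50.8 CPM per naive, 49.99 to 113 CPM per TH1 effector and 89.4 to 111 CPM per reactivated TH1 library. Between the TH1 effector and reactivated TH1 groups, members of this sum moved both ways. Gpnmb fell from a mean of 36.7 to 8.12 CPM, and Aif1, Cebpb, Mrc1, Tlr2 and Tlr4 were lower too. Lyz2 rose from 0.0697 to 5.98 CPM, Clec7a from 0.0149 to 4.35 CPM and Il1b from 0.0868 to 8.64 CPM. C1qb had a mean of 0 CPM before reactivation. The median log2 fold change of tested markers was 0.41 for TH1 effector against naive and 1.92 for reactivated TH1 against TH1 effector. Single defining markers were low: Lyz2 had 142 to 226 counts and C1qb 26 to 59 counts in a reactivated TH1 library, and Lyz1 and Marco had none. The part of macrophage RNA in the results was not tested. In bulk RNA a change in the share of cells that express a gene and a change in the RNA of each cell cannot be told apart.

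Reactivated TH1 cells differed from naive cells in most of the genes measured. Of 12584 genes tested, 11029 (87.6%) passed the test at an adjusted p of 0.05, 6025 (47.9%) higher and 5004 (39.8%) lower. At least 2-fold differences were found for 6651 genes (52.9%), 3791 (30.1%) higher and 2860 (22.7%) lower. At least 8-fold differences were found for 1564 genes (12.4%) higher and 634 (5.04%) lower. All 6 reactivated TH1 libraries lay above all 6 naive libraries for 5213 genes (41.4%) and below them for 4275 genes (34%). The median log2 fold change of all genes was 0.15. These shares are the background for the gene lists below, in which a member counts as higher or lower when it passed the test, and the median of each list is to be read against 0.15. The filter kept 312 genes without naive counts for their counts in other groups, so these genes could not come out lower. In the plot of list members, chemokine and cytokine genes lie farthest to the right and naive genes farthest to the left.

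**Figure D1:**
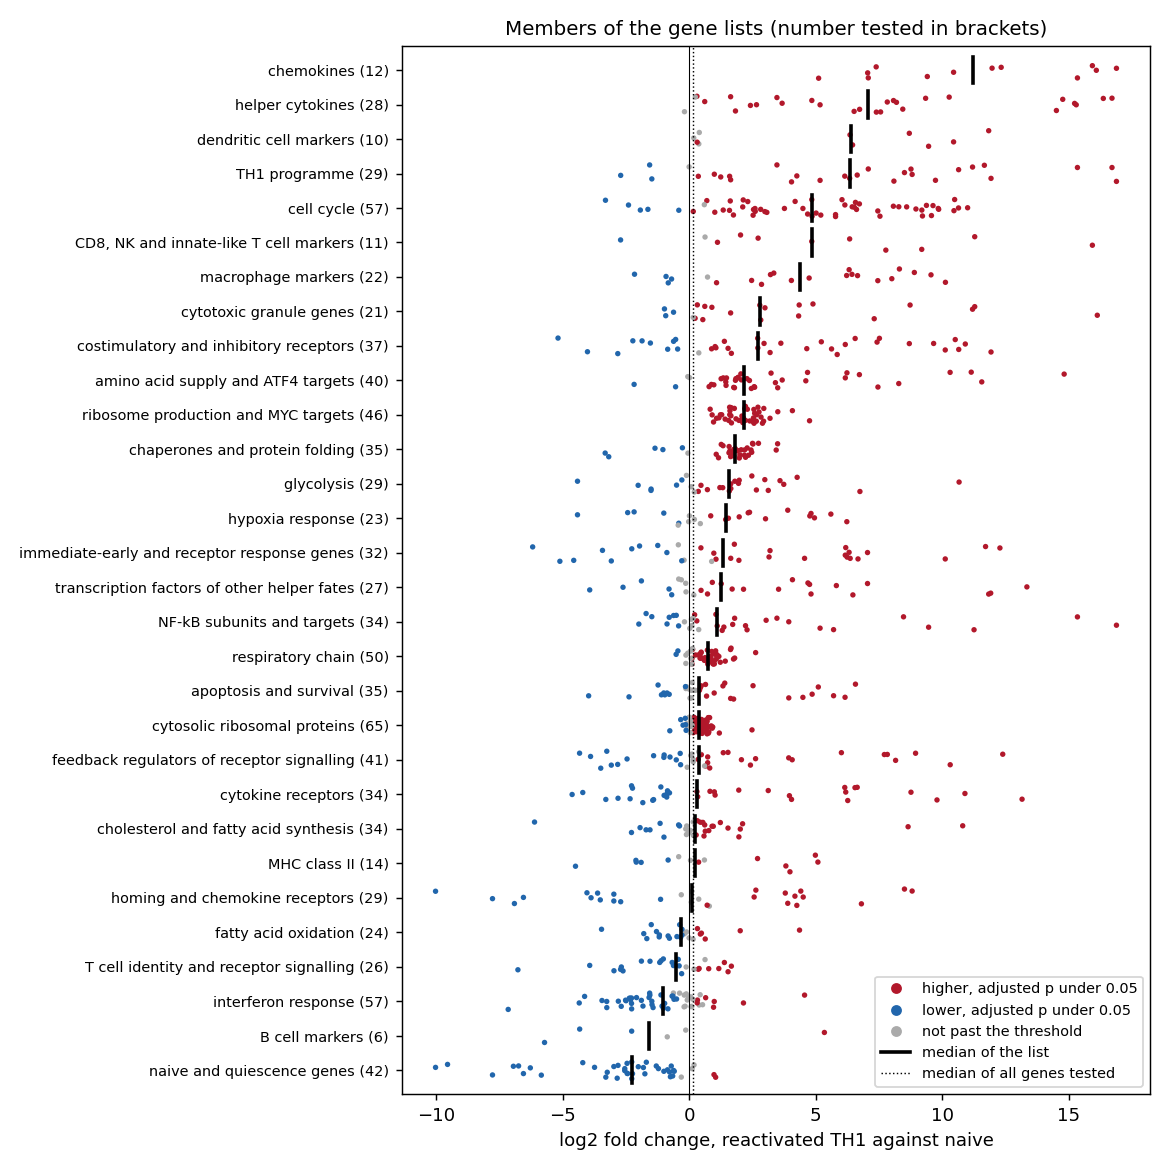
Each point is a tested gene of the list named on the y axis, placed by its log2 fold change between 6 reactivated TH1 and 6 naive libraries (x axis), with black bars for list medians and a dotted line for the median of all genes tested (0.15). Chemokines have the highest median (11.21) and naive and quiescence genes the lowest (−2.28).

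Most of the 12 genes with the largest increases encode secreted proteins. Ifng, which encodes interferon gamma (chr10:118441046-118445892), was at 0, 0.137, 0.249, 0, 0.0961 and 0.188 CPM in naive and at 19064, 15554, 9827, 14400.5, 9168 and 9685 CPM in reactivated TH1 numbers 1 to 6. The groups lay far apart, with reactivated TH1 numbers 3, 5 and 6 lowest of their group (log2 fold change 16.71, SE 0.45, adjusted p = 1.53e-18). Il2, the T cell growth factor gene (chr3:37120523-37125959), had no counts in naive libraries and 432, 324, 219, 389.9, 698 and 393 CPM in reactivated TH1 numbers 1 to 6. Taken against 3 counts over the naive group, or 0.0205 CPM, it was at least 19934-fold higher, and such a floor covers counting error only. Ccl3 (chr11:83647844-83649355), a chemokine that draws monocytes and T cells, was at 0 to 0.107 CPM in naive and 4352, 5286 and 7373 CPM in reactivated TH1 libraries (lowest, median and highest). Gzmb, for granzyme B, a protease that kills target cells, was at 0 to 0.0712 CPM in naive and 869.6, 2402 and 3570.0 CPM in reactivated TH1 libraries, where numbers 5 and 6 were lowest. The other 8 of the 12 largest increases were the chemokine genes Ccl1, Xcl1 and Ccl4, the cytokine genes Il21, Il3 and Spp1, the kinase gene Nek6 and Bcat1, which encodes a branched-chain amino acid transaminase. Naive libraries had no count of Ccl1, Nek6 or Il21, whose levels were higher by at least 15425-, 9971- and 9518-fold. The values of Xcl1, Nek6, Il21 and Bcat1 are uncertain to the extent that genes on the opposite strand share exons with them, since the kit marks strand but the strand setting of the counting is not given, and Ifng and Spp1 overlap a gene on their own strand.

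The 12 genes with the largest decreases included a gut-homing receptor and an enzyme of antigen receptor assembly. Slc16a5 (chr11:115462474-115474398), which encodes a monocarboxylate transporter of the MCT family, was at 142, 131, 131, 129.99, 184 and 189 CPM in naive numbers 1 to 6 and had no counts in any reactivated TH1 library. It was at least 8408-fold lower than in naive cells, against 3 counts over the 6 reactivated libraries. Ccr9 (chr9:123678439-123784330), the receptor that guides T cells to the gut and thymus, was at 72.8, 85.8 and 106 CPM in naive and 0 to 0.151 CPM in reactivated TH1 libraries. Dntt, which encodes terminal deoxynucleotidyl transferase and is textbook for immature lymphocytes, was at 157.8 ± 33.6 CPM in naive and 0.426 ± 0.196 CPM in reactivated TH1 libraries. Vipr1, the receptor gene of vasoactive intestinal peptide, was at 113 and 0.416 CPM, and Il17rb, a cytokine receptor gene, at 11.6 and 0.0283 CPM. Chdh, for choline dehydrogenase, was at 37.6 and 0.0925 CPM, and Tlr12, an innate receptor gene, at 34.1 and 0.120 CPM. The other 5 were Cyp2d22, Fam101b, Gm11346, Gm14085 and Gm14446, at 22.0 to 254 CPM in naive and 0.0758 to 0.810 CPM in reactivated TH1 libraries. Slc16a5, Ccr9, Chdh and Il17rb share exon sequence with a gene on the opposite strand.

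**Figure D2:**
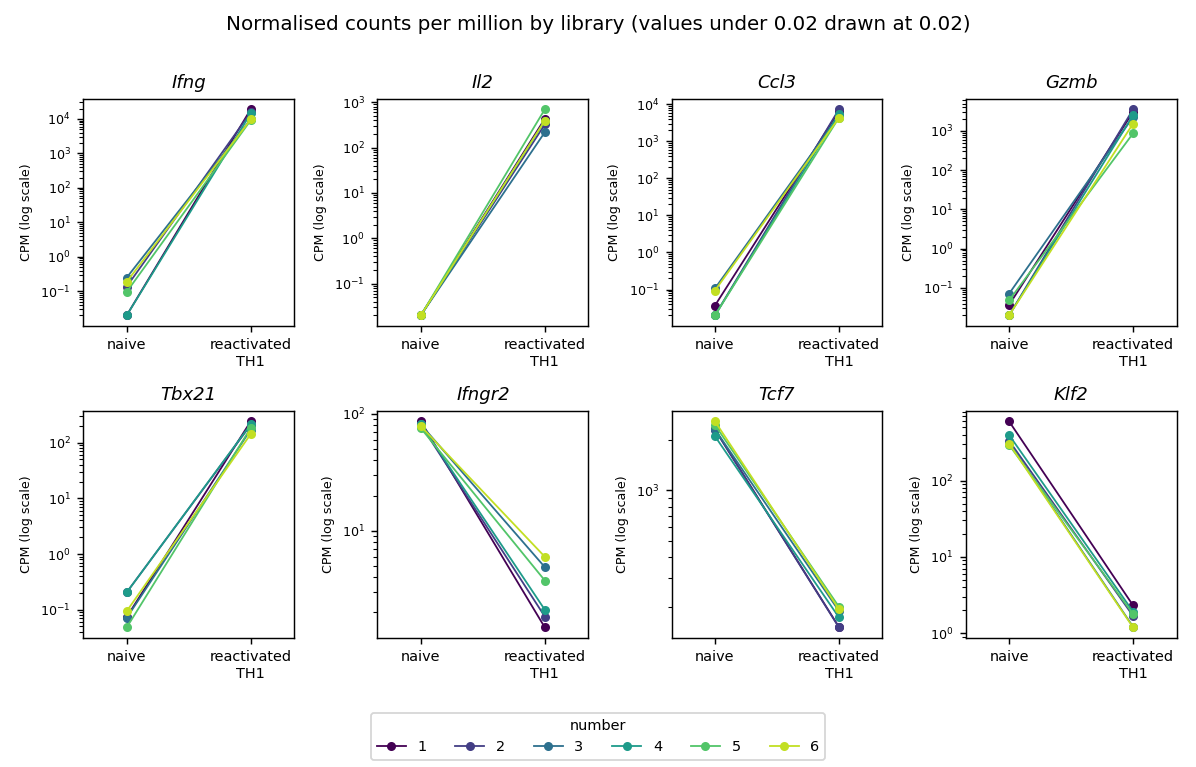
CPM on a log scale (y axis) of 8 genes in naive and reactivated TH1 libraries (x axis), with lines joining libraries of the same number and values under 0.02 CPM drawn at 0.02. All 6 lines of Ifng, Il2, Ccl3, Gzmb and Tbx21 go up and all 6 of Ifngr2, Tcf7 and Klf2 go down.

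Promoter sequence was looked at for the genes that moved most, as a description of what stands before their start sites. RefSeq entries (GRCm38.p6, 250 bases before to 50 bases after the start) matched 11 of the 12 genes with the largest increases and 6 of the 12 with the largest decreases. The TATA letters TATAAA, read on the gene's own strand, stood in 5 of the 11 and in 0 of the 6, against 8.32% of 32851 promoters of this length. The NFAT core letters GGAAAA, on either strand, stood in 6 of the 11 and 0 of the 6, against 23.4% of all promoters. The AP-1 letters TGANTCA stood in 2 of the 11 and 2 of the 6, against 7.81%. A gene counted if any of its RefSeq entries matched, whereas the percentages are shares of single entries, so the 2 are not fully alike. A match is a run of letters and no proof of a site, and these genes were chosen for their change. The promoters of Il2, Ifng and Ccl1 are printed because they belong to the induced genes described above, and that of Ccr9 for contrast, all 5′ to 3′ with matches in capitals.
Il2 (chr3:37125905-37126204, minus strand): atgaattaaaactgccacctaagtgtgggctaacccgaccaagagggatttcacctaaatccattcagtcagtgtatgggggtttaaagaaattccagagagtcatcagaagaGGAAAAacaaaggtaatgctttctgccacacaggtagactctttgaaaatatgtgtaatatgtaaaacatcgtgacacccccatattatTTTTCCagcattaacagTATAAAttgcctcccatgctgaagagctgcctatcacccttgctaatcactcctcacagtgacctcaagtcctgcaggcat
Ifng (chr10:118440796-118441095, plus strand): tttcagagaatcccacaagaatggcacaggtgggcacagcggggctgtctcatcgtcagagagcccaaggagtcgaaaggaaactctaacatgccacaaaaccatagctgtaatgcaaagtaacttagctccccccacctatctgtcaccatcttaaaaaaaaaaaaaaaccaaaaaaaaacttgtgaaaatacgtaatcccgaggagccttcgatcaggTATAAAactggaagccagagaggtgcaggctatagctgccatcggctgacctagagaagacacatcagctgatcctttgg
Ccl1 (chr11:82179763-82180062, minus strand): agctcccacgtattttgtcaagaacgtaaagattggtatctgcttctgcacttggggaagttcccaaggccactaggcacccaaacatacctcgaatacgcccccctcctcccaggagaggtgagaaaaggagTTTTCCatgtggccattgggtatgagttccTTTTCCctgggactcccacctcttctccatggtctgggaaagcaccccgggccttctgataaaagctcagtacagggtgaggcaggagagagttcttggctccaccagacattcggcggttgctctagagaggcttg
Ccr9 (chr9:123766961-123767260, plus strand): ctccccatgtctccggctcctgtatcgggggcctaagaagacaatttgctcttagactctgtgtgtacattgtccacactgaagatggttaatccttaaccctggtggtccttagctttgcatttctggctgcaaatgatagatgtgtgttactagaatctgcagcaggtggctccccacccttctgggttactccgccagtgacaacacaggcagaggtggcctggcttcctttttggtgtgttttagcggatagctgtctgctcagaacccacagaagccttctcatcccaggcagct
In Il2 the capitals mark GGAAAA at −137, its reverse complement TTTTCC at −48 and TATAAA at −31, counted from the start site. In Ifng they mark TATAAA at −30 and in Ccl1 TTTTCC at −117 and −87, while the window of Ccr9, whose RefSeq start lies inside the GENCODE gene, holds none of these letters. The windows of Xcl1 and Il3, also among the 12 largest increases, hold none of them either and are not printed.

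Most of the TH1 programme was higher in reactivated TH1 cells. Of 29 tested genes 25 were higher, 23 of them at least 2-fold, 3 were lower and 1 did not pass, with a median log2 fold change of 6.34. Beside Tbx21, the transcription factor genes Bhlhe40 (0.843 to 733 CPM), Eomes (0.670 to 54.1 CPM) and Twist1 (no counts to 15.5 CPM) were higher. Both chains of the interleukin 12 receptor were higher, Il12rb2 from 0.654 to 288 CPM and Il12rb1 from 18.0 to 296 CPM. Those of the interleukin 18 receptor were higher too, Il18rap with a log2 fold change of 6.15 and Il18r1 of 0.99. The chemokine receptor gene Cxcr3, which brings TH1 cells to inflamed tissue, was at 25.1 to 45.5 CPM in reactivated TH1 libraries and 0.0356 to 0.111 CPM in naive libraries. Irf1, an interferon-induced factor, was at 501 ± 99.7 CPM in naive and 169.6 ± 41.7 CPM in reactivated TH1 libraries (log2 fold change −1.57, SE 0.20, adjusted p = 7.93e-10), and Selplg, the selectin ligand gene (547 to 83.4 CPM), was lower too. Runx3, a partner of T-bet, was at 87.2 to 102 CPM in naive and 76.1 to 118 CPM in reactivated TH1 libraries (log2 fold change −0.01, SE 0.11, adjusted p = 0.956), although TH1 effector libraries averaged 297 CPM.

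Receptor genes of interferon gamma itself were lower in the group with high Ifng. Ifngr2, the signalling chain, was at 86.3, 80.4, 81.1, 81.5, 75.4 and 78.4 CPM in naive and 1.49, 1.84, 4.87, 2.10, 3.75 and 5.98 CPM in reactivated TH1 numbers 1 to 6. The groups did not overlap (log2 fold change −4.63, SE 0.33, adjusted p = 2.12e-11), and reactivated numbers 3, 5 and 6 were the highest of their group. Ifngr1, the ligand-binding chain, was at 173 ± 16.5 CPM in naive and 48.3 ± 4.40 CPM in reactivated TH1 libraries (log2 fold change −1.84, SE 0.08, adjusted p = 9.43e-12). TH1 effector libraries held 483 CPM of Ifngr1 and 15.6 CPM of Ifngr2. In the list of 34 cytokine receptor genes 18 were higher and 16 lower, near the shares of all genes. The interleukin 2 receptor genes Il2ra (23.04 to 1676 CPM) and Il2rb (4.69 to 467 CPM) and the interleukin 33 and interleukin 1 receptor genes Il1rl1 (0.00801 to 105 CPM) and Il1r2 (0.0458 to 92.8 CPM) were higher. Il7r (419.6 to 59.3 CPM), Il6ra (268 to 14.5 CPM), Il6st (346 to 35.2 CPM) and Tgfbr2 (382 to 80.6 CPM), receptors of signals that naive cells depend on or receive, were lower. The common gamma chain gene Il2rg differed little (729.9 and 902 CPM, log2 fold change 0.30, SE 0.05).

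Helper cytokine genes were higher across the list, with those of the TH2 and TH17 types at a low level. Of 28 tested of 32 listed, 26 were higher, 24 at least 2-fold, and none was lower, and the median log2 fold change was 7.06, or 5.99 with the 9 genes that had no naive counts at their lower bounds. Those 9 were kept for their counts in other groups and could not come out lower. Tnf went from 29.2 ± 1.75 to 324 ± 103 CPM, Lta from 17.2 to 617 CPM and Tnfsf11, which encodes RANKL, from 1.41 to 382 CPM. Csf2, for the growth factor GM-CSF, had no naive counts and was at 77.4, 118 and 195 CPM in reactivated TH1 libraries (at least 6306-fold higher). Il3 was at 0 to 0.0961 CPM in naive and 670.1 to 1274 CPM in reactivated TH1 libraries. Il10, a cytokine that restrains inflammation, had no naive counts and spanned 34.7 to 202 CPM between reactivated libraries. Il4 and Il13, the TH2 cytokine genes, had no naive counts and reached 0.681 to 1.51 and 1.24 to 2.23 CPM, and Il17f went from 0.206 to 1.16 CPM. The untested members Il5, Il9 and Il17a had 9, 1 and 5 counts over all 6 reactivated TH1 libraries.

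All chemokine genes tested were higher. These were 12 of the 15 listed, with a median log2 fold change of 11.21, or 9.06 with the 5 genes without naive counts at their bounds. Those 5 were kept for their counts in other groups, so higher was the only direction open to them. Ccl3, Ccl4 and Xcl1 had 6 counts each over the naive group, Ccl9 had 3 and Cxcl11 had 1, which left little room below. Ccl4 was at 1418 to 2244 CPM and Xcl1, which attracts cross-presenting dendritic cells, at 1913 to 3507 CPM in reactivated TH1 libraries, against at most 0.188 and 0.0961 CPM in naive libraries. Ccl9 (0.0178 to 128 CPM), Ccl5 (0.338 to 44.3 CPM) and the interferon-induced genes Cxcl9 (no counts to 18.8 CPM) and Cxcl10 (1.48 to 47.7 CPM) were higher as well. Ccl9, Cxcl9 and Ccl22 are also known from macrophages or dendritic cells, and their source was not tested. The untested members Ccl17, Ccl24 and Cxcl2 had 56, 103 and 100 counts over the reactivated group and 0 in naive libraries.

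Cytotoxic granule genes were mostly higher. Of 21 tested of 27 listed, 17 were higher, 12 at least 2-fold, 3 were lower and 1 did not pass, with a median log2 fold change of 2.79. Nkg7, a granule membrane protein gene, went from 0.442 to 1021 CPM, Crtam, a marker of cytotoxic CD4 cells, from 1.13 to 485 CPM, and the activating receptor gene Klrk1 from 0.00801 to 28.8 CPM. Prf1, the gene of the pore-forming perforin, was at 16.0 to 41.04 CPM in naive and 20.5 to 57.3 CPM in reactivated TH1 libraries. These ranges overlapped (log2 fold change 0.53, SE 0.22, adjusted p = 0.0371), and leaving out number 1, 2, 3 or 4 ended the call (adjusted p 0.155, 0.277, 0.0973 and 0.121), as did RLE scaling (0.0501) and the fit of the 12 libraries alone without (0.179) or with the replicate block (0.271). In lane 4 alone its log2 fold change was −0.17. Gzma was at 3.81 and 4.11 CPM and did not pass (adjusted p = 0.654).

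Genes that hold naive cells at rest and in circulation were lower, with few exceptions. Of 42 naive and quiescence genes 37 were lower, 30 at least 2-fold, 2 were higher and 3 did not pass, and the median log2 fold change was −2.28. Klf2, which sustains the homing receptors of naive cells, was at 597, 333, 315, 395, 294 and 305 CPM in naive and 2.31, 1.68, 1.21, 1.91, 1.78 and 1.19 CPM in reactivated TH1 numbers 1 to 6 (log2 fold change −7.78, SE 0.23, adjusted p = 6.69e-17). Number 1 was the highest library of both groups, and the groups did not overlap. Tcf7, which encodes TCF-1, was at 2112, 2323 and 2594 CPM in naive and 151, 181 and 200.2 CPM in reactivated TH1 libraries (log2 fold change −3.75, SE 0.08, adjusted p = 1.86e-10). Lef1 (311 to 54.1 CPM) and Foxo1 (413 to 76.8 CPM), factors of the same network, were lower by a smaller factor. Pik3ip1, a brake on PI3 kinase, went from 235.9 ± 4.98 to 2.25 ± 1.19 CPM and Tsc22d3, the glucocorticoid-induced GILZ gene, from 473 ± 63.0 to 6.02 ± 1.21 CPM. Nsg2 went from 376 to 3.02 CPM and Klf3 from 247 to 4.43 CPM. The 2 genes that were higher were Bach2, a repressor of effector genes (169 to 195 CPM in naive and 286 to 442 CPM in reactivated TH1 libraries, log2 fold change 1.04, SE 0.10), and Slfn2 (571 to 1121 CPM). Foxp1, Bcl2 and Ccr7 did not pass (adjusted p = 0.0622, 0.270 and 0.489). Foxp1 passed when blocked by replicate number (adjusted p = 0.0489), and Ccr7 in the fit of the 12 libraries alone (0.0437), where its log2 fold change was −0.38, or −0.42 with the replicate block (0.0202).

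Among homing genes single members differed by large factors in both directions, while the median and the calls of any size lay near the background. Of 29 tested, 12 were higher and 12 lower, against 47.9% and 39.8% of all genes. At least 2-fold, 11 were higher and 12 lower, against 30.1% and 22.7% of all genes. The median log2 fold change was 0.09, which turned to −0.06 with scaling by library size alone. S1pr1, the receptor by which T cells leave lymph nodes, was at 539.7 to 648 CPM in naive and 4.32 to 10.3 CPM in reactivated TH1 libraries. The integrin genes Itgb3 (216 to 1.81 CPM), Itga4 (756 to 46.5 CPM) and Itgb7 (874 to 76.2 CPM) and the chemokine receptor gene Cxcr4 (161.3 to 12.7 CPM) were lower. Itgb1 (62.4 to 368 CPM) and Cd44 (28.2 to 417 CPM), adhesion receptors of antigen-experienced cells, were higher. Ccr7, the lymph node chemokine receptor gene, was at 344, 389 and 423 CPM in naive and 198, 305 and 459 CPM in reactivated TH1 libraries, with overlapping groups.

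Early receptor response genes included large increases and large decreases. Of 32 tested 19 were higher and 10 lower, with a median log2 fold change of 1.346. Nr4a2 was at 1.46 to 4.76 CPM in naive and 109, 176 and 321 CPM in reactivated TH1 libraries, and Nr4a3 at 1.68 to 2.49 and 113, 206 and 314 CPM. Both are relatives of Nr4a1, and they did not overlap between the groups (log2 fold change 6.24, SE 0.39, adjusted p = 4.45e-11, and 6.67, SE 0.26, adjusted p = 2.64e-10). Egr2, a zinc finger factor of receptor signalling, went from 4.33 ± 0.730 to 354 ± 50.9 CPM, whereas Egr1 was at 55.1 to 96.1 and 34.9 to 101 CPM and did not pass (log2 fold change −0.43, adjusted p = 0.272). In the fit of the 12 libraries alone blocked by replicate number Egr1 passed as lower (−0.56, adjusted p = 0.00199). Irf4, which scales with receptor signal strength, went from 6.62 ± 1.26 to 872 ± 145 CPM, and the costimulatory receptor genes Tnfrsf9 (4-1BB) and Tnfrsf4 (OX40) from 1.45 to 1613 and from 7.52 to 541 CPM. Cd69, the early activation marker, was at 57.6 to 138 CPM in naive and 86.3 to 202 CPM in reactivated TH1 libraries (log2 fold change 0.46, SE 0.19, adjusted p = 0.00590), a call that ended in lane 3 alone (0.0625), with scaling by library size (0.0520), in the blocked fit of the 12 libraries (0.0681) and without numbers 5 and 6 (0.125).

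The AP-1 family changed its make-up. Fos was at 864, 414, 395, 743, 792 and 646 CPM in naive and 17.6, 8.33, 5.41, 13.3, 4.84 and 3.97 CPM in reactivated TH1 numbers 1 to 6 (log2 fold change −6.19, SE 0.41, adjusted p = 6.07e-12). Fosb went from 69.3, 231.8 and 294 CPM in naive to 3.18, 4.31 and 11.2 CPM in reactivated TH1 libraries. All 6 reactivated libraries lay below all 6 naive libraries for both genes. Jun (549 ± 147 to 50.8 ± 8.88 CPM), Junb (1257 ± 336 to 321 ± 51.1 CPM) and Jund (456 ± 161.2 to 248 ± 62.3 CPM) were lower too. Fosl1 and Atf3 had no naive counts and were at 20.4 to 27.2 and 11.4 to 19.8 CPM in reactivated TH1 libraries, at least 1130- and 770-fold higher. Fosl2 (7.56 to 65.9 CPM), Batf3 (no counts to 17.1 CPM) and Batf (19.6 to 27.1 CPM) were higher, Batf not in lane 4 alone (adjusted p = 0.145). TH1 effector libraries averaged 47.5 CPM of Atf3, 231 CPM of Fosl2 and 126 CPM of Batf3, all above the reactivated TH1 means. They averaged 1.41 CPM of Fosl1, below the reactivated TH1 level. Naive libraries were not alike: number 1 was highest for Fos, Jun, Junb and Jund, and numbers 2 and 3 were lowest for Fos and Fosb.

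**Figure D3:**
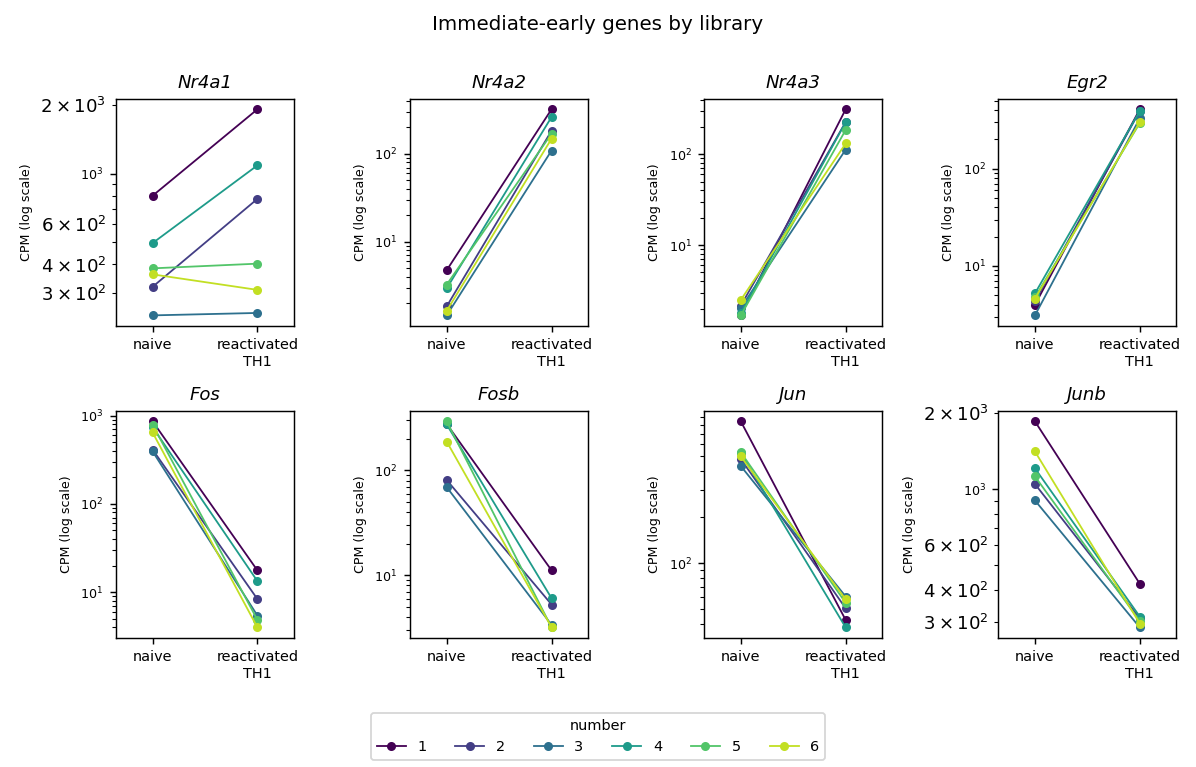
CPM on a log scale (y axis, different for each gene) of 8 early response genes in naive and reactivated TH1 libraries, with lines joining the same number. Nr4a2, Nr4a3 and Egr2 go up and Fos, Fosb, Jun and Junb go down in all 6 pairs, while Nr4a1 goes down in number 6 and up in the other 5.

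Feedback regulators as a list lay near the background, with 20 of 41 genes higher and 14 lower against 47.9% and 39.8% of all genes (median log2 fold change 0.37), and single members stood out in both directions. Rgs16, which shortens signals of chemokine receptors, was at 0 to 0.516 CPM in naive and 962 to 1382 CPM in reactivated TH1 libraries. Rgs1 (9.82 to 628 CPM), the MAP kinase phosphatase gene Dusp4 (0.157 to 198 CPM) and Spry1 (1.06 to 296 CPM), an inhibitor of the Ras pathway, were higher. Socs3, which blocks signals of the interleukin 6 receptor family, was at 319.5 ± 56.2 CPM in naive and 15.7 ± 1.18 CPM in reactivated TH1 libraries, and Dusp10 (101 to 6.78 CPM) and Dusp1 (191 to 22.5 CPM) were lower. Of 34 NF-kB subunits and targets 20 were higher and 8 lower (median 1.08). The subunit genes Nfkb1 (log2 fold change 1.79), Nfkb2 (3.04) and Rel (2.22) were higher. The inhibitor genes Nfkbib (2.28) and Nfkbie (1.10) were higher too, while the inhibitor genes Nfkbia and Tnfaip3 did not pass (adjusted p = 0.405 and 0.236). Nfkbid (−0.52), Nfkbiz (−1.71) and Relt (−1.996) were lower. Tnfaip3 passed without number 1 (log2 fold change 0.67, adjusted p = 0.0214).

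Costimulatory and inhibitory receptor genes were mostly higher. Of 37 tested 26 were higher, 25 at least 2-fold, 10 lower and 1 did not pass, with a median log2 fold change of 2.71. Among inhibitory receptors, Lag3 was at 0.0961 to 0.342 CPM in naive and 392 to 528 CPM in reactivated TH1 libraries and Havcr2, for TIM-3, at 0 to 0.0939 and 69.5 to 228 CPM. Pdcd1 (PD-1) went from 1.45 to 136 CPM, Cd160 from 2.45 to 122 CPM, Tigit from 0.152 to 27.3 CPM and Ctla4 from 2.53 to 92.6 CPM. TH1 effector libraries averaged 9.26 CPM of Pdcd1 and 598 CPM of Ctla4. Of the costimulators, Cd28 (log2 fold change 1.39) and Icos (2.71) were higher and Cd27 (−0.62) was lower. Cd226, the activating partner of TIGIT, was at 59.4 ± 7.52 CPM in naive and 1.63 ± 0.316 CPM in reactivated TH1 libraries, and Cd101 at 7.74 and 0.464 CPM.

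Genes of T cell identity and receptor signalling were lower more often than higher. Of 26 tested 16 were lower and 7 higher, and the median log2 fold change was −0.53. Txk, a TEC-family kinase gene, was at 178 ± 13.8 CPM in naive and 1.61 ± 0.422 CPM in reactivated TH1 libraries. Rasgrp1 (599 to 75.9 CPM), Lck (1043 to 355 CPM), Themis (248.8 to 122 CPM) and Zbtb7b, the CD4 lineage factor (286 to 76.9 CPM), were lower. Zap70 was higher by a small amount (log2 fold change 0.39, SE 0.07), and the receptor-dampening genes Cd5 (169 to 534 CPM) and Cd6 (244 to 701 CPM) were higher. Among 27 transcription factor genes of other helper fates 17 were higher and 5 lower (median 1.26). Gata3, the TH2 factor, went from 60.8 ± 4.31 to 9.89 ± 2.16 CPM, and Foxp3 was at 0.701 and 0.780 CPM and did not pass (adjusted p = 0.646). Zbtb32, a repressor of cytokine genes, was at 0 to 0.0712 CPM in naive and 338 to 488 CPM in reactivated TH1 libraries, Zeb2 went from 0.0256 to 124 CPM, Maf from 3.10 to 35.3 CPM and Tox from 54.4 to 3.53 CPM.

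Genes of ribosome production were higher without exception among those tested. Each of the 46 tested members of that list, which includes MYC targets, passed as higher, 43 at least 2-fold (median log2 fold change 2.16), and the smallest change was that of Ubtf (0.82, SE 0.04). Myc was at 65.5 ± 8.58 CPM in naive and 598 ± 52.5 CPM in reactivated TH1 libraries (log2 fold change 3.19, SE 0.09, adjusted p = 8.40e-19). Odc1 (38.4 to 1035 CPM) and Srm (24.9 to 420.1 CPM), enzymes of polyamine synthesis, and the nucleolar genes Ncl (585 to 4347 CPM) and Npm1 (509 to 3341 CPM) were higher. The list's summed level was 4914 to 5046 CPM per naive, 9695 to 11075 CPM per TH1 effector and 24795 to 27842 CPM per reactivated TH1 library. The genes of the ribosome's own proteins changed less. Of 65 tested, 48 were higher and 6 lower, 2 at least 2-fold higher (median 0.38). Rps12 went from 594 to 1361 CPM (log2 fold change 1.19), and Rps24 (−0.14) and Rps27 (−0.77) were lower, Rps24 with a call that ended within each lane (adjusted p = 0.257 and 0.0538). Reads of ribosomal protein genes and Npm1 can be shared with processed pseudogenes, which makes their values uncertain.

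Amino acid supply, folding and glycolysis genes were mostly higher. Of 40 genes of amino acid supply and ATF4 targets 36 were higher, 33 at least 2-fold, and 2 lower (median log2 fold change 2.17). Asns, which makes asparagine, was at 0 to 0.214 CPM in naive and 80.8 to 193 CPM in reactivated TH1 libraries, Cth, which makes cysteine, at 0 to 0.137 and 65.1 to 79.4 CPM. The serine pathway genes Psat1 (14.8 to 362 CPM) and Shmt2 (69.2 to 659 CPM) and the transporter gene Slc7a5 (38.2 to 489 CPM) were higher, and Ddit4, an inhibitor of mTOR, was lower (199 ± 82.4 to 43.0 ± 9.49 CPM). Of 35 chaperone genes 29 were higher, all at least 2-fold, and 5 lower (median 1.82). Hspd1 (139.6 to 1511 CPM), a mitochondrial chaperonin, and Hspa5 (662 to 2493 CPM), of the endoplasmic reticulum, were higher. The heat-inducible genes Hspa1a (4.77 to 0.515 CPM) and Hspa1b (24.7 to 2.51 CPM), which share sequence, and their partner Dnajb1 (199.7 to 77.7 CPM) were lower.

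Of 29 glycolysis genes 20 were higher and 6 lower (median 1.58), but the list's summed level was lower after reactivation than before. It was 3309.7 to 3704 CPM per naive, 15033 to 25157 CPM per TH1 effector and 9206 to 12623 CPM per reactivated TH1 library. Hk2, the inducible hexokinase, was at 0.0342 to 0.204 CPM in naive and 204 to 265 CPM in reactivated TH1 libraries. Slc2a1, the glucose transporter gene, went from 39.0 to 153 CPM, Gapdh from 347 to 2190.4 CPM and Ldha from 394 to 1525 CPM. Pdk1, which restrains the oxidation of pyruvate, was at 667, 651, 671, 668, 775 and 722 CPM in naive and 32.9, 33.9, 39.9, 32.8, 23.9 and 31.9 CPM in reactivated TH1 numbers 1 to 6 (log2 fold change −4.42, SE 0.09, adjusted p = 1.96e-17). Pfkfb4 was lower as well (16.5 to 4.06 CPM). Of 23 hypoxia response genes 13 were higher and 5 lower (median 1.44), with Hif1a at 113 and 564 CPM, Vegfa at 1.29 and 61.2 CPM and Bnip3l at 151 and 27.8 CPM.

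Most respiratory chain genes were higher by small factors, and fatty acid oxidation genes were more often lower. Of 50 respiratory chain genes 41 were higher, 13 at least 2-fold, and 2 lower (median 0.72), led by Cycs, cytochrome c (29.1 to 180.2 CPM), and Cox5a (40.5 to 141 CPM). Of 24 fatty acid oxidation genes 14 were lower and 6 higher (median −0.32). Cpt1a, which admits fatty acids to mitochondria, went from 87.5 to 30.8 CPM, Hadhb from 83.9 to 26.2 CPM and Acad10 from 18.9 to 1.68 CPM, while the electron carrier gene Etfb was higher (18.0 to 72.4 CPM). Of 34 genes of cholesterol and fatty acid synthesis 17 were higher, near the share of all genes, and 9 lower (median 0.21). The fatty acid genes Fasn (log2 fold change 2.01), Acaca (2.11), Scd1 (8.65) and Fads2 (10.81) were higher. Of the cholesterol genes Dhcr7 (−2.29) and Mvd (−1.71) were lower, and their regulator Srebf2 did not pass (adjusted p = 0.156), but passed as lower in the fit of the 12 libraries alone without (0.0178) or with the replicate block (0.0164). Acss2, which makes acetyl-CoA from acetate, was at 90.3 ± 14.3 CPM in naive and 1.31 ± 0.310 CPM in reactivated TH1 libraries.

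Cell cycle genes were higher in reactivated TH1 cells. Of 57 tested 51 were higher, 49 at least 2-fold, 5 lower and 1 did not pass, with a median log2 fold change of 4.85. The medians of the 2 steps were 4.52 for TH1 effector against naive and 0.01 for reactivated TH1 against TH1 effector. Mki67, the proliferation marker, was at 0.684, 0.883 and 1.22 CPM in naive and 556, 835 and 1038 CPM in reactivated TH1 libraries. Ccna2 (0.0832 to 178 CPM) and Cdk1 (0.443 to 175 CPM) were higher, and so was the inhibitor gene Cdkn1a (0.156 to 260.4 CPM). Cdkn1b, for the inhibitor p27 of resting cells, was at 206 ± 16.5 CPM in naive and 20.7 ± 3.69 CPM in reactivated TH1 libraries, and the pocket protein gene Rbl2 at 184 and 34.7 CPM. Of the D-type cyclins, Ccnd2 was higher (log2 fold change 2.13) and Ccnd3 lower (−0.42). Among 35 apoptosis and survival genes 18 were higher, near the share of all genes, and 9 lower (median 0.40). The protective gene Bcl2l1 (19.3 to 291 CPM) was higher, and Mcl1 (735 to 342 CPM), the death-promoting Bmf (16.0 to 1.03 CPM) and Casp9 (26.2 to 5.04 CPM) were lower.

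Interferon response genes were lower in reactivated TH1 cells, by amounts that differed between libraries. Of 57 tested 35 were lower, 29 at least 2-fold, 7 were higher and 15 did not pass, with a median log2 fold change of −1.02. Averaged over the list, log2 CPM came to 7.09, 7.10, 7.10, 7.49, 7.01 and 7.05 in naive and to 5.29, 5.59, 6.09, 6.09, 6.66 and 6.46 in reactivated TH1 numbers 1 to 6. Numbers 5 and 6 were the highest of the reactivated group and the lowest of the naive group, and no reactivated library reached a naive one. Oas2, an antiviral sensor gene, was at 116 to 166.7 CPM in naive and 0.7101 to 1.78 CPM in reactivated TH1 libraries, and Ifit3 at 52.6 to 105 and 1.36 to 13.8 CPM. Irf7 (236.2 to 44.7 CPM) and Gbp4 (727 to 118 CPM) were lower, while Irf8 (9.13 to 212 CPM) and Mx1 (19.6 to 101 CPM) were higher. Mx1 spanned 30.9, 57.9, 99.0, 83.9, 170.2 and 161.3 CPM in reactivated TH1 numbers 1 to 6, against 10.4 to 23.6 CPM in naive libraries. Ifit1 was lower over all libraries (−1.59, SE 0.30, adjusted p = 0.00612) but not in lane 4 alone (log2 fold change −0.65, adjusted p = 0.386).

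MHC class II genes, which mouse T cells hold at low levels, were 6 higher and 5 lower among 14 tested, near the shares of all genes. H2-Ab1 went from 0.466 to 15.2 CPM, H2-Aa from 0.431 to 6.97 CPM and the invariant chain gene Cd74 from 2.08 to 66.5 CPM, while H2-Ob (29.1 to 1.27 CPM) and the protease gene Ctss (167.4 to 38.7 CPM) were lower. TH1 effector libraries held 54.5 CPM of H2-Ab1 and 5.77 CPM of H2-Aa. The macrophage markers Nos2 and Il1b were at 8.70 to 15.7 and 7.58 to 9.64 CPM in reactivated TH1 libraries and at most 0.0470 and 0.0342 CPM in naive libraries. B cell markers had a summed level of 6.29 to 9.09 CPM in naive and 1.58 to 2.60 CPM in reactivated TH1 libraries, with 6 of 18 tested, 3 lower and 1 higher. Of dendritic cell markers 10 of 17 were tested and 7 were higher, led by Batf3 and Ccl22, both also known from activated T cells. Of markers of CD8, NK and innate-like T cells 11 of 21 were tested, 9 higher and Cd8b1 lower (26.3 ± 2.76 to 3.997 ± 0.294 CPM). Among neutrophil and red cell markers 2 were tested, and Mmp9 went from 0.0325 to 1.49 CPM. The part of other cells in these results was not tested.

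The span joins 2 steps, differentiation (TH1 effector against naive) and reactivation (reactivated TH1 against TH1 effector), which share the TH1 effector libraries, so that their values are only set side by side. In the first step 10686 genes (84.9%) passed and in the second 10032 (79.7%). The test of reactivated TH1 against TH1 effector is also the test of how the whole span differs from its first step. For chemokines the median log2 fold change was 3.82 in the first and 7.20 in the second step, for glycolysis 2.22 and −0.88, for ribosome production and MYC targets 0.65 and 1.53, and for hypoxia response genes 2.59 and −1.41. Reactivated TH1 and activated naive cells, both 6 hours after stimulation, differed in 10045 genes (79.8%). The labels do not name the stimulus of the activated naive cells clearly, so cell state and stimulus cannot be told apart in this comparison. Against activated naive cells Ifng was higher in reactivated TH1 cells by a log2 fold change of 14.74 (adjusted p = 8.19e-18) and Il2 by 4.66 (adjusted p = 6.43e-12). Irf4 (−1.996, adjusted p = 7.32e-15) and Nr4a1 (−3.49, adjusted p = 2.88e-06) were lower than in activated naive cells.

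Some genes moved the same way in both steps. Csf2, Ifng, Spp1, Bdh2, Cd70 and Siglec5 had the largest smaller step among genes that went up in both. Cd70, the ligand gene of CD27, had no naive counts and averaged 0.216 CPM before and 34.0 CPM after reactivation. Spp1, which encodes osteopontin, averaged 0.00801, 6.34 and 323 CPM in naive, TH1 effector and reactivated TH1 libraries. Slc16a5, Gm14085, Klf2, Dntt, Gm11346 and Rapgef4 went down in both steps, for example Rapgef4, an exchange factor of RAP1, at 86.6, 3.90 and 0.335 CPM.

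Others moved out and back, so that the ends of the span hide them. Bcl2, the survival gene, averaged 129 ± 17.5 CPM in naive, 979.6 CPM in TH1 effector libraries and 142 ± 31.3 CPM after reactivation. Its steps were 2.91 (adjusted p = 6.44e-19) and −2.80 (adjusted p = 2.90e-18) on the log2 scale, and the span did not pass (0.11, SE 0.10, adjusted p = 0.270). Pim2, a survival kinase gene, averaged 68.9, 488 and 62.7 CPM in the same order (span adjusted p = 0.269), and Fam46a averaged 23.2, 202 and 21.5 CPM (adjusted p = 0.425). Rsad2, the antiviral viperin gene, went down and up again (25.5, 1.29 and 28.0 CPM), as did Rab11fip4 (62.5, 8.45 and 60.5 CPM) and Sipa1l2 (27.6, 2.87 and 20.1 CPM). Of these 6 genes only Sipa1l2 passed over the span (log2 fold change −0.47, SE 0.15, adjusted p = 0.00429), and that call ended in lane 3 alone (adjusted p = 0.325) and without numbers 5 and 6 (0.0973). The 6 were chosen for opposite steps and a small span.

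**Figure D4:**
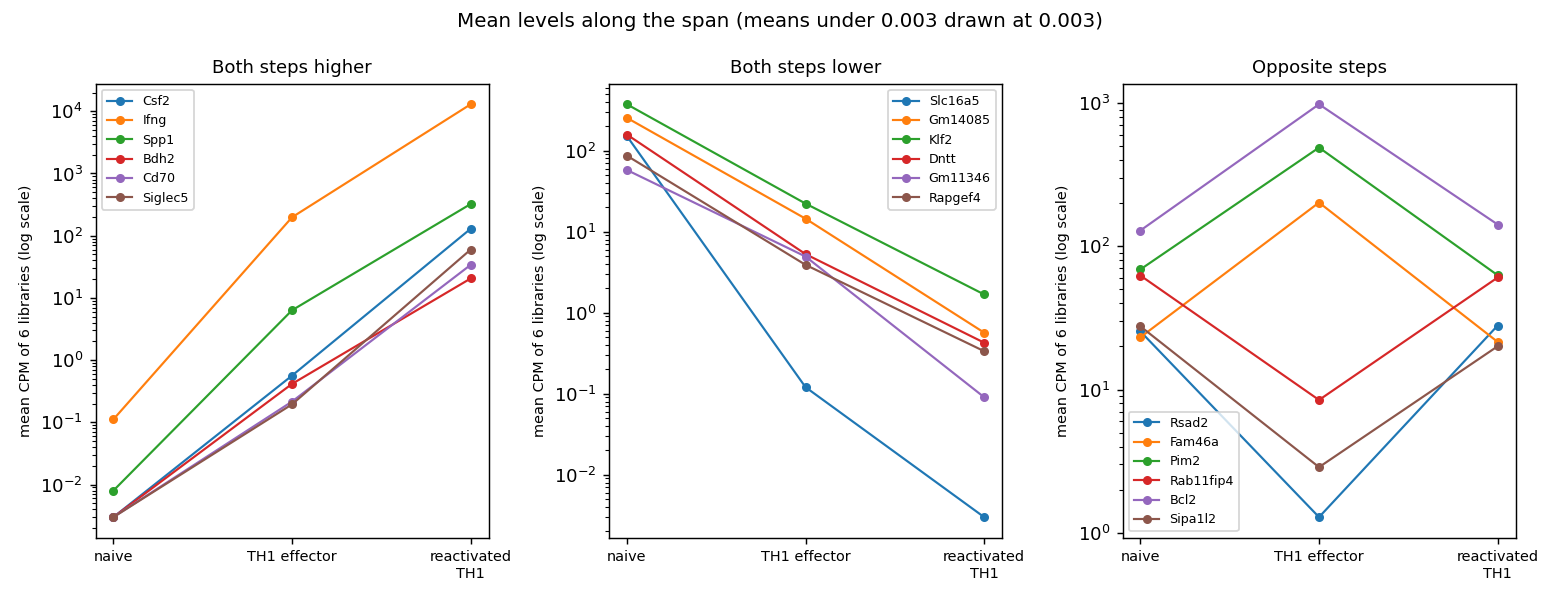
Mean CPM of 6 libraries on a log scale (y axis) in naive, TH1 effector and reactivated TH1 cells (x axis) for 6 genes higher in both steps, 6 lower in both and 6 with opposite steps, with means under 0.003 CPM drawn at 0.003. In the last panel Bcl2 goes from 129 to 979.6 and back to 142 CPM.

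Changes can also be ranked as shares of all counts, by the difference in mean CPM. The 10 largest gains in mean CPM were those of Ifng, Ccl3, Eef1a1, Ncl, Hsp90ab1, Hspa8, Npm1, Xcl1, Gzmb and Pkm. Eef1a1, a translation elongation factor, went from 8590.3 ± 391 to 13212 ± 1162 CPM (log2 fold change 0.62), Hsp90ab1 from 1443 to 5098 CPM and Pkm, for pyruvate kinase, from 479 to 2656 CPM. The 10 largest losses were those of Macf1, Hmha1, Tcf7, Ddx5, H2-K1, Dgka, Ets1, Txnip, Shisa5 and Zfp36l2. Macf1, a cytoskeletal linker gene, went from 3646 ± 259 to 584 ± 47.6 CPM and Txnip, which restrains glucose uptake, from 1652 ± 133 to 109.5 ± 21.8 CPM. Dgka, which dampens diacylglycerol signals, went from 1964 to 358 CPM, Ets1, a lymphocyte transcription factor, from 1923 to 327 CPM and Zfp36l2, which promotes mRNA decay, from 1588 to 101 CPM. Long genes collect more reads, so these shares do not rank the genes by transcript number.

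The 6 pairs moved together for the genes named first. Within pairs of the same number Ifng was higher in 6 of 6, as were Il2, Ccl3, Gzmb and Tbx21, and Ifngr2, Tcf7, Klf2 and Fos were lower in 6 of 6. Nr4a1 was higher in 5 of 6 pairs, with a within-pair log2 difference from −0.23 to 1.28. The change differed between lanes for 7 genes (0.0556%) at an adjusted p of 0.05 and for 1359 at an unadjusted p of 0.05, and none of the 7 had opposite signs.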

How the data were processed

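Bulk RNA of sorted mouse CD4 T cells was sequenced in 24 libraries, 4 groups of 6. Each deposited file holds whole-number counts per gene for 1 library, not normalised by the authors; per the submitters' processing notes STAR, HTSeq, DESeq2 and build mm10 were used, while the sources used here give no versions, annotation or strand setting. The 5 summary lines that name no gene were left out; reads with no feature averaged 23.1% in naive and 15.6% in reactivated TH1 libraries, ambiguous reads 0.901% and 0.967%.

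From the 23420 genes, edgeR 4.0.16 (R 4.3.3) kept 12584 by filterByExpr, scaled by TMM and fitted its robust quasi-likelihood model to all 24 libraries with group and lane as terms. P-values were adjusted by Benjamini-Hochberg at 0.05. CPM are counts scaled to library size after TMM, and log2 CPM carry a prior count of 2. Bounds for genes without counts use 3 counts over the 6 libraries of a group (0.0205 CPM in naive, 0.0180 CPM in reactivated TH1) and cover counting error only.

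Libraries of the same number deviated together (Pearson r 0.165 to 0.270 over genes after removing group means, 0.143 to 0.321 after removing group and lane means, all over the threshold of 0.1), and Xist and Y-linked genes matched by number. By the threshold of 0.1 the numbers pair the samples. After removing group means, the best match in the other group had the same number for every number. After removing group and lane means, this did not hold in both directions for numbers 2, 5 and 6. The main design has no replicate term, and a fit blocked by number, DESeq2 1.42.0, other scalings, filters and subsets of libraries were run as alternatives.

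Named were the 12 largest changes in each direction without overlap and with 10 CPM or more, up to 2 per direction and list at 1 CPM or more and 2-fold, the label checks, the 10 largest gains and losses in CPM, and 6 genes each with steps the same way up, the same way down or opposite. Members and lists were chosen with earlier results of these data known, and genes named beyond the rule were chosen after their values were seen. Some named genes are not reported here. Gene positions and overlaps come from GENCODE annotation of mm10 and promoters from RefSeq.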

Additional observations from a re-analysis of the deposited data

Results flagged for a closer look

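Libraries that stood apart from their group were looked for in 424 groups of 6 libraries, over the genes named above, and 20 were found. Chance gives about 1 in 20 groups, which is near that number. The level of the library that stood apart was, in naive cells, 18.8 CPM of Il17rb, 841 CPM of Jun and 776 CPM of Jund in number 1. In naive number 3 it was 396 CPM of Cd27 and 2.63 CPM of Rps27, and in naive number 4 it was 28.6 CPM of Icos. In naive number 5 it was 231 CPM of Il6ra, 10.4 CPM of Mx1, 52.6 CPM of Ifit3, 14.6 CPM of Rsad2, 3960 CPM of Ddx5 and 1.54 CPM of Cd160. Mx1, Ifit3 and Rsad2 are interferon response genes, and naive number 5 held the lowest level of each.

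In reactivated TH1 cells it was 424 CPM of Junb in number 1, 0.639 CPM of H2-Ob in number 3, 636 CPM of Fasn in number 4 and 86.6 CPM of Ccl9 in number 6. In reactivated TH1 number 5 it was 21.6 CPM of Scd1, 10.3 CPM of Batf3, 6.20 CPM of Cxcr4 and 327 CPM of Cd27.

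The log2 fold change differed between lanes, by an interaction term in edgeR (lane 4 minus lane 3), for 7 genes. The 4 with the lowest p, each at an adjusted p of 0.0431, were 2900005J15Rik with a difference of 1.55, Leng8 with 0.812, Ninl with 5.81 and Ezh1 with 0.459. Each kept its direction in both lanes.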

How the results depend on the processing

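Of 255 named genes, 27 changed direction or side of the threshold in at least 1 of the 19 other settings, and the others did in none. Genes past the threshold numbered 10188 (lane 4) to 12251 (no filter on low counts), against 11029, except 8599 at 10 CPM or more in a group and 7983 in a test against 1.5-fold. Leaving out each number in turn gave 10762 to 10928. DESeq2 gave 11916 and leaving out numbers 5 and 6, chosen after seeing the data, 10906. The replicate block gave 10574 over the 12 libraries and 11099 over all 24, where it lost 22 calls, gained 92 and changed, of the genes named in the report, the calls of Foxp1 (adjusted p 0.0622 to 0.0489) and the Y-linked Ddx3y (0.792 to 0.00494). Over the 12, adding the block to the unblocked fit changed the calls of Cd69 (0.0470 to 0.0681) and Egr1 (0.0619 to 0.00199), while those of Ccr7, Prf1 and Srebf2 had already changed in the unblocked fit of the 12 (0.0437, 0.179 and 0.0178). Genes at least 2-fold higher fell to 2489 at 10 CPM or more, where fewer genes are tested. Scaling by library size alone shifted the median by −0.15 and left 49.9% of calls higher, against 54.6%.

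These values changed sign, and the cause was not tested. Homing median: −0.0556 (library size), −0.32 (10 CPM). Cytokine receptor median: −0.83 (10 CPM). MHC class II median: −0.0027 (no filter), −0.40 (10 CPM), −0.0766 (without 5 and 6). B cell marker median: 0.10 (DESeq2), 0.12 (no filter). In lane 3 alone the log2 fold change was 0.0856 for Pim2, 0.15 for Rab11fip4, −0.19 for Bcl2, 0.0046 for Runx3 and −0.25 for Foxp3. In lane 4 alone it was 0.79 for Rsad2, 0.10 for Fam46a, −0.17 for Prf1, −0.18 for Gzma and 0.0291 for Srebf2. Without numbers 5 and 6 it was −0.16 for Bcl2, 0.00048 for Runx3, −0.35 for Foxp3 and −0.0418 for Nfkbia. Rsad2 was at 0.13 with no lane term and Bcl2 at −0.0388 by library size. Leaving out a number in turn gave −0.52 to 0.0818 for Rsad2 (highest without number 1), −0.11 to 0.0461 for Runx3 (above 0 without 3, 5 or 6), −0.0236 to 0.29 for Foxp3 (lowest without 5) and −0.0011 to 0.29 for Gzma (lowest without 2). Depth limits genes under a few counts per library.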
